A study of Mus musculus with 13 samples.

Results

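GABA-A receptors are chloride channels opened by the transmitter GABA, each a ring of subunits drawn from a large gene family. Most carry α and β subunits, between which GABA binds, together with a γ or δ subunit that sets sensitivity to benzodiazepines and the place of the channel on the membrane. Oligodendrocyte progenitor cells (OPCs), the glial cells that give rise to myelinating oligodendrocytes, receive GABAergic input from neurons, and their receptor make-up is known to shift with postnatal age. The 7 subunit genes described here, of the 37785 genes measured, were taken by name: Gabra2, Gabra3, Gabra4 and Gabra5 (α subunits), Gabrb1 and Gabrb2 (β subunits) and Gabrg1 (a γ subunit). All 7 passed the low-count filter and were tested.

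Total RNA was sequenced from bulk brain cells of wild-type C57BL/6 mice that had been pulled down with magnetic beads against Pdgfra, the receptor that marks OPCs. The 13 libraries came from 4 ages, with 8669521 to 25810455 counts each. By their titles these are embryonic day 16 (E16, 3 libraries), postnatal day 12 (P12, 3), postnatal day 80 (P80, 3) and postnatal day 310 (P310, 4). The sample labels give an age slightly below the title age for every P310 library. They give one slightly above it for P80 replicates 2 and 3. Myelin debris was removed with beads ahead of the sort only at the adult ages P80 and P310, so this step and age cannot be told apart in any comparison of the younger with the older pair of ages. The libraries of P12 replicates 2 and 3 were close to counting noise of each other (chi-square of 2.344 per degree of freedom, against at least 16.578 for every other pair of the same age) and were summed, which left 3, 2, 3 and 4 samples. The labels do not say how the mice were divided among the libraries, so p-values measure the spread between these samples, which may be technical. In bulk RNA, fewer cells of a type and less RNA per cell cannot be told apart.

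Levels are counts scaled to a common library size by the TMM method (CPM). The sorted cells held OPC markers at every age, but markers of other cells were also high and moved with age. The summed CPM of 15 OPC markers lay between 599 and 787 at E16 and P12 and between 155 and 374 at P80 and P310. The sum of 15 immature neuron markers lay between 7455 and 8843 at E16 and between 122 and 373 at all later ages. Astrocyte markers (14 genes) summed to 440 to 532 CPM at E16, 3220 to 3697 at P12, 1535 to 2253 at P80 and 826 to 1914 at P310, and endothelial markers (12 genes) to 66.8 to 94.0 at E16 and 4982 to 9425 later. Mature oligodendrocyte markers (15 genes) stood apart in P12 replicate 1 (8739 CPM) and in P310 replicate 2 (68125 CPM), against 1392 or less in the other samples. Mitochondrial genes took 1.52% to 3.54% of the counts at E16 and up to 34.4% at P310. The parts these cells and this share played in the levels below were not tested.

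**Figure D1:**
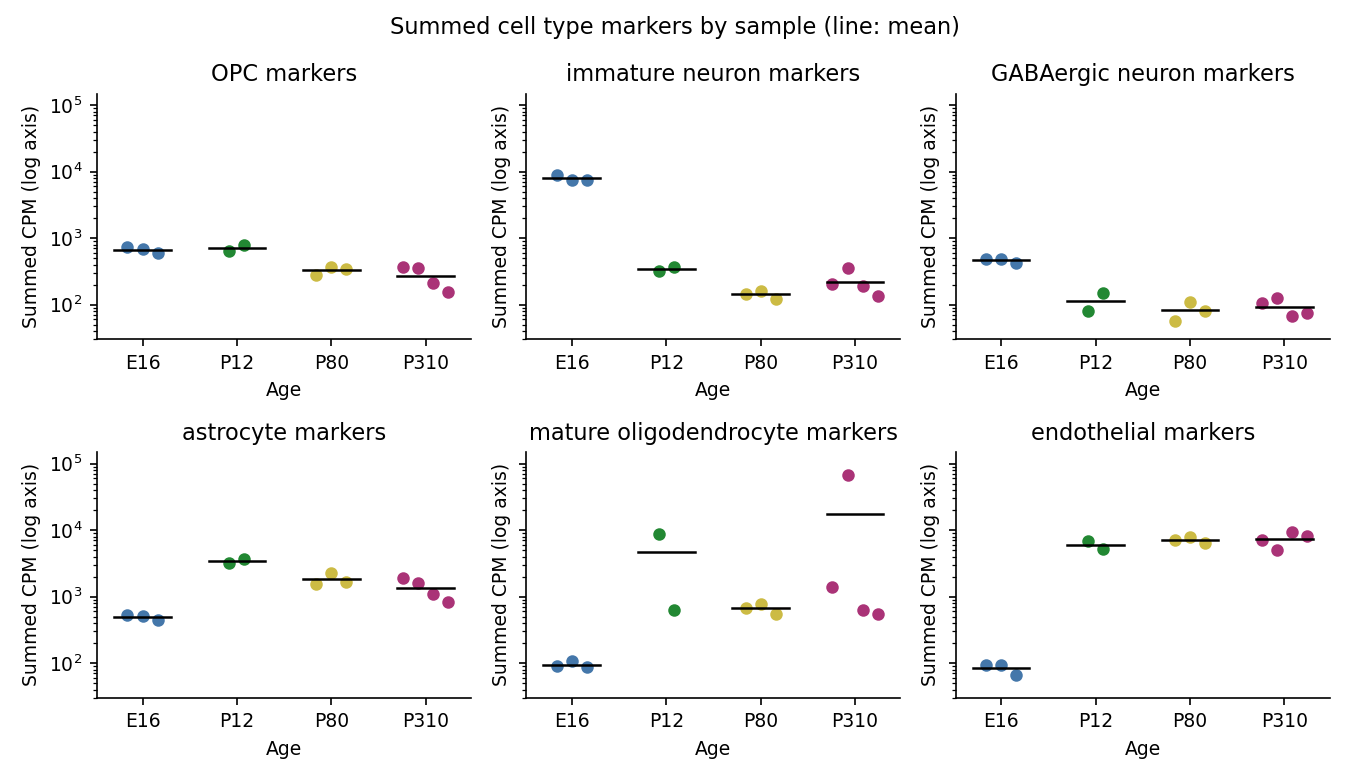
Summed CPM of marker genes for 6 cell types (log axis) in each sample, grouped by age; points are samples and lines are means. Immature neuron markers sit at 7455 to 8843 CPM at E16 and at 373 or below afterwards, while astrocyte and endothelial markers are lowest at E16.

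The 7 genes lie in 4 places in the mouse genome (GRCm38). Gabrg1 (chr5:70751047-70842617, minus strand), Gabra2 (chr5:70957597-71095849, minus), Gabra4 (chr5:71569749-71658308, minus) and Gabrb1 (chr5:71658113-72149037, plus) form a cluster that spans 1.398 Mb. Gabra4 and Gabrb1 start head to head and share 46 exonic bases on opposite strands. Gabra5 (chr7:57407672-57510059, minus), Gabrb2 (chr11:42419757-42629028, plus) and Gabra3 (chrX:72432681-72656848, minus) lie alone among the 7 on their chromosomes. All 7 genes matched a RefSeq promoter entry (GRCm38.p6), with 11 annotated starts. The 250 bases before the first listed start of 3 genes are shown because neighbours in the chromosome 5 cluster did not follow 1 pattern, and because Gabrb2 was highest at E16, the age at which Gabrg1 was low. CG dinucleotides, the sites of DNA methylation, are in capitals.
Gabrg1, chr5:70842618-70842867, minus strand: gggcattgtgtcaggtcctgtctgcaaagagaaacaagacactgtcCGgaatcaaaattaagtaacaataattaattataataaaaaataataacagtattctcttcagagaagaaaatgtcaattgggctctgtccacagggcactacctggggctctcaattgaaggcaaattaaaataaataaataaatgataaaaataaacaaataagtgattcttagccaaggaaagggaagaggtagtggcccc
Gabra2, chr5:71095850-71096099, minus strand: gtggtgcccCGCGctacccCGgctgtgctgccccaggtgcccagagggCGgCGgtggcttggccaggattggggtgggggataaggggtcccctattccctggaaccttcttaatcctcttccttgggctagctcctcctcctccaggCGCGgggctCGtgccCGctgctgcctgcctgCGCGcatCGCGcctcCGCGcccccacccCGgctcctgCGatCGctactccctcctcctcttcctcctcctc
Gabrb2, chr11:42420190-42420439, plus strand: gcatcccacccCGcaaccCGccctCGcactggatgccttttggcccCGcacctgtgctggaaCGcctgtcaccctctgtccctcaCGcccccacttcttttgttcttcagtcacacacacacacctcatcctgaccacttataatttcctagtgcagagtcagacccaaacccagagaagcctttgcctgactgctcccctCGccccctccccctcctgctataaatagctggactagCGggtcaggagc
The Gabrg1 window held 1 CG, the Gabra2 window 18 and the Gabrb2 window 8, against a median of 6 over the first windows of 27025 genes. The letters TATAAA, searched on both strands, were in the Gabrb2 window and in neither the Gabrg1 nor the Gabra2 window. Of all first windows, 12.97% held them. The windows before Gabrb2 starts 2 and 3 did not. The Gabrb2 window shown lies within the span of the gene given above. These are descriptions of sequence, and the counts carry no measure of binding or methylation at these starts.

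The 7 subunits took different courses between E16 and P12. Gabrb1 and Gabrg1, a β and a γ subunit, rose, and none of the 7 fell past the threshold. With edgeR's quasi-likelihood test (adjusted p under 0.05 over 21170 genes), 2 of 7 were called, both higher at P12, where 27.2% of all genes tested were called, 16.7% higher and 10.5% lower. The median log2 change of the 7 was 0.81, against 0.09 over all genes tested. That median is the value of Gabra5 alone, which was not called (SE 1.55, adjusted p = 0.747 by edgeR). The 7 changes ran from -2.68 (Gabrb2) to 3.12 (Gabrg1), with Gabra3 and Gabra4 also negative.

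Gabrb1 encodes the β1 subunit, which lines part of the GABA binding site. Its level was 5.61, 7.78 and 4.36 CPM in the 3 E16 samples and 14.6 and 22.1 CPM in the 2 P12 samples. It was 14.3, 27.2 and 15.8 CPM at P80 and 15.8, 13.4, 12.5 and 10.4 CPM at P310. Every later sample lay above every E16 sample, and the 3 later ages overlapped. Gabrb1 rose 3.09-fold from E16 to P12 (log2 change 1.63 ± 0.40, SE; adjusted p = 0.00712 by edgeR). From E16 to P80 it rose 3.21-fold (log2 change 1.68 ± 0.37; adjusted p = 0.00235), and it was called over all ages together (adjusted p = 0.0105). Without P12 replicate 2-3 the adjusted p of the first comparison was 0.0989, with 1 P12 sample left whose spread is taken from the other ages.

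Gabrg1 encodes γ1, a γ subunit with a narrow distribution in the brain, known from glia as well as neurons. Its level was 0.79, 0.97 and 1.36 CPM at E16 and 10.4 and 7.80 CPM at P12. At P80 it was 1.27, 10.1 and 1.39 CPM, and at P310 4.36, 0.66, 1.34 and 0.34 CPM. Both P12 samples lay above every E16 sample, while P80 replicate 2 alone among the adult samples reached the P12 range. Gabrg1 rose 8.68-fold from E16 to P12 (log2 change 3.12 ± 1.05; adjusted p = 0.0384 by edgeR). That call was lost when any 1 sample of E16 or P12 was left out, with a log2 change of 2.90 to 3.36 and adjusted p between 0.0836 and 0.135 in those 5 fits. The log2 change from E16 to P80 was 2.01 ± 0.97 (adjusted p = 0.112) and fell to 0.35 without P80 replicate 2.

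Markers of several cell types were also called higher at P12 than at E16, where 16.7% of all genes tested were called higher. They were 11 of 14 astrocyte, 12 of 12 endothelial, 10 of 12 microglia and 8 of 10 pericyte and smooth muscle markers. So were 9 of 15 mature oligodendrocyte and 6 of 9 ependymal and choroid plexus markers. None of these lists' members was called lower. Of 15 OPC markers 4 were called higher and 1 lower. Of 10 committed precursor markers 5 were called higher and 3 lower. Between P12 and P80 the mean astrocyte sum went from 3459 to 1812 CPM. The mean pericyte and smooth muscle sum went from 1149 to 1356 CPM. Mean Gabrb1 was 18.3 and 19.1 CPM and mean Gabrg1 9.10 and 4.26 CPM at these ages. Neither gene's change between them passed (adjusted p = 0.992 and 0.855 by edgeR). The P80 samples of Gabrg1 were 1.27, 10.1 and 1.39 CPM. Whether either gene's level came from these cells was not tested. Slc1a3, the astrocyte glutamate transporter, was the coding gene whose levels were most like those of Gabrg1 across the 12 samples (Pearson r = 0.92 on log2(CPM + 1), a description), followed by Ttyh1 (r = 0.91) and Prr5 (r = 0.90). The genes most like Gabrb1 were Pdgfrb, the pericyte receptor (r = 0.95), Gpc5, a glypican (r = 0.94), and Cmya5 (r = 0.94). Likeness was ranked over the 15163 coding genes that averaged 1 CPM or more, and shared age and cell make-up enter every such value.

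**Figure D2:**
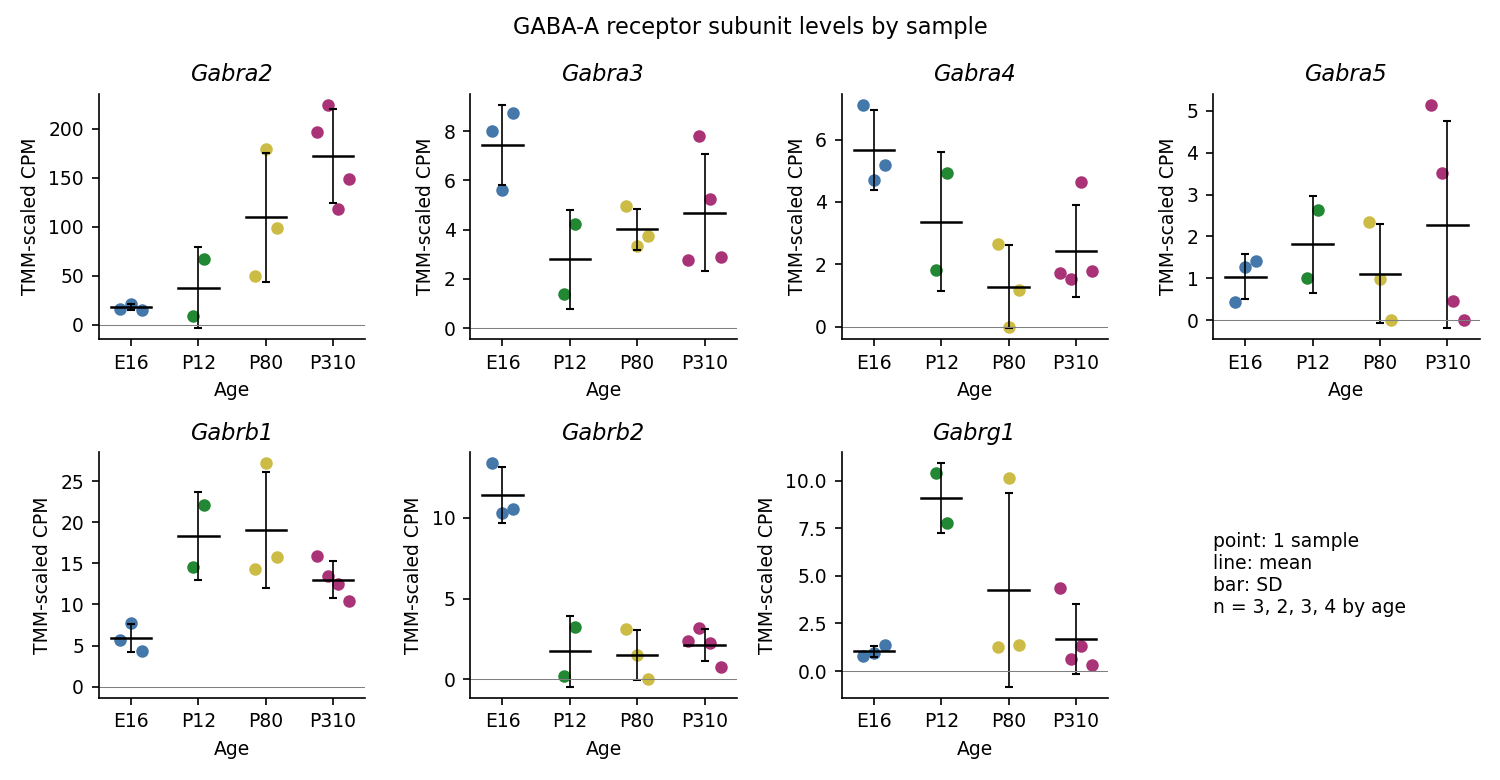
CPM of each of the 7 subunit genes in every sample by age, with the mean (line) and SD (bar). Gabrb1 lies higher in all later samples than at E16, Gabrb2 lies lower, and Gabrg1 is highest at P12 and in 1 P80 sample.

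Gabrb2, which encodes β2, a subunit common in receptors of the adult brain, was highest at E16. Its level was 13.4, 10.3 and 10.6 CPM at E16, and 0.19 and 3.27 CPM at P12. It was 3.10, 1.48 and 0 CPM at P80, where the sample at 0 allows up to 0.21 CPM (3 counts), and 2.38, 3.19, 2.23 and 0.77 CPM at P310. All E16 samples lay above all later samples. The fitted log2 changes were large but did not pass the threshold, at -2.68 ± 1.28 from E16 to P12 (adjusted p = 0.14 by edgeR) and -2.89 ± 1.12 from E16 to P80 (adjusted p = 0.0528). The second of these passed in 7 of 20 alternative fits, DESeq2 among them (adjusted p = 0.0143), and its adjusted p ranged from 0.000743 to 0.123. P12 replicate 1, with 3 counts, and the 154 counts of replicate 2-3 differed widely, as did their summed mature neuron markers (70.0 and 697 CPM).

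The coding genes most like Gabrb2 across the 12 samples were Add2 (r = 0.98), Myt1l (r = 0.98), a neuronal transcription factor, and Celf3 (r = 0.97), a neuronal RNA-binding protein. Of 15 immature neuron markers, 13 were called lower at P12 than at E16, where 10.5% of all genes tested were called lower. All 15 were called lower at P80 than at E16, against 19.2% of all genes tested. Whether a change in these cells bears on the Gabrb2 level was not tested.

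Gabra3, which encodes α3, a subunit of the embryonic and early postnatal brain, was 7.99, 5.61 and 8.73 CPM at E16. It was 1.37 and 4.22 CPM at P12, 4.94, 3.33 and 3.75 CPM at P80, and 2.77, 7.81, 5.26 and 2.89 CPM at P310. E16 lay above P12 and P80 with no overlap, and overlapped P310. Neither the change from E16 to P12 (log2 -1.40 ± 0.66; adjusted p = 0.137) nor that to P80 (log2 -0.89 ± 0.57; adjusted p = 0.234) passed in edgeR, and neither passed in any alternative fit. The genes most like it were Ighmbp2 (r = 0.94), Scube1 (r = 0.93) and Lrrtm3 (r = 0.92).

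Gabra4, which encodes α4, a partner of δ in receptors outside synapses, was 7.13, 4.71 and 5.19 CPM at E16 and 1.80 and 4.94 CPM at P12. It was 2.66, 0 and 1.18 CPM at P80, where the sample at 0 allows up to 0.37 CPM, and 1.72, 1.54, 4.64 and 1.79 CPM at P310. E16 lay above P80 with no overlap, by a log2 change of -2.10 ± 0.94 (adjusted p = 0.0888 by edgeR). This passed in 3 of 20 alternative fits, namely with DESeq2, with no low-count filter and without P80 replicate 1 (adjusted p from 0.0339 to 0.0413), and ranged up to 0.196. Gabra4 shares its start region with Gabrb1, whose level was higher at P80 than at E16. Since the counting took no account of strand, reads on the 46 shared bases count for both genes. The genes most like Gabra4 were Ascl4 (r = 0.93), Bysl (r = 0.93) and Gm49378 (r = 0.92).

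Gabra5, which encodes α5, a subunit of receptors outside synapses, was low throughout. Its level was 0.43, 1.27 and 1.42 CPM at E16, 0.995 and 2.63 CPM at P12, 2.34, 0.99 and 0 CPM at P80, and 5.15, 3.52, 0.45 and 0 CPM at P310. The ages overlapped throughout, and no comparison passed (adjusted p of at least 0.747 by edgeR). The 2 samples at 0 allow up to 0.21 CPM at P80 and 0.26 CPM at P310. The antisense gene Gm9962 shares 148 of the 2974 exonic bases of Gabra5, and reads on these shared bases count for both genes. The genes most like it were Gstm6 (r = 0.90), Car8 (r = 0.88) and Shank2 (r = 0.88).

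Gabra2, which encodes α2, a synaptic α subunit of the young brain, had the highest mean CPM of the 7 at every age. Its level was 16.3, 21.3 and 15.6 CPM at E16 and 8.71 and 67.3 CPM at P12. It was 50.05, 180 and 98.8 CPM at P80 and 197, 225, 118 and 148 CPM at P310. The P80 and P310 samples lay above all E16 samples, while the 2 P12 samples fell on either side of them. The log2 change from E16 to P80 was 2.63 ± 0.66, or 6.17-fold (adjusted p = 0.00899 by edgeR), and it passed in 20 of 20 alternative fits. The change from E16 to P12 did not pass (log2 1.11 ± 0.69; adjusted p = 0.272); it passed with no low-count filter (log2 1.12; adjusted p = 0.0036) and without P12 replicate 1 (log2 1.93; adjusted p = 0.0145), and was negative without P12 replicate 2-3 (log2 -1.03; adjusted p = 0.285). The change from P12 to P80 (log2 1.52 ± 0.73; adjusted p = 0.567) passed with no low-count filter (log2 1.49; adjusted p = 0.00087) and without P12 replicate 2-3 (log2 3.64; adjusted p = 0.0226).

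The genes whose counts were most like those of Gabra2 shared a repeat with it. The 3 coding genes most like it across the 12 samples were Pde11a (r = 0.99), Mlip (r = 0.99) and Vmn1r73 (r = 0.99), a vomeronasal receptor gene, and the next included the olfactory receptor gene Olfr143 and the reproductive homeobox gene Rhox8. All 20 of the 20 most alike genes held a run of at least 30 bases of the trinucleotide repeat AAG or its complement CTT in an annotated transcript, against 0.41% of the 15163 genes ranked. Among the 50 most alike genes, 29 (58.0%) held such a run. The Gabra2 transcript with the longest coding form (5852 bases) holds such a run in its 3' UTR, at transcript positions 2530 to 2650, a stretch in which 130 other genes share 30 identical bases. In all, 574 of its bases (9.81%) lie in 30-base stretches shared with other genes, 4018 in number. The stretches shared with most genes were others, at positions 3136 to 3211 (2803 genes) and 131 to 213 (1084 genes), neither with the AAG run. In the same search, of 1 coding transcript per gene, Gabra3, Gabra4, Gabrb1, Gabrb2 and Gabrg1 had no such stretch, though exons outside the transcripts searched can share bases, as the 46 of Gabra4 and Gabrb1 do, and the 154 shared bases of Gabra5 were shared with 1 gene.

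Most other genes with the run were also higher at P80 than at E16. Of the 99 that were tested, 68 were called higher at P80 than at E16 and 3 lower, which is 68.7% higher against 21.5% of all genes tested, and their median log2 change was 3.10 against 0.12. From E16 to P12 their median was 2.08 against 0.09. The run was searched for after the levels had been seen, and these counts carry no test. In P12 replicate 1 Gabra2 stood at -0.93 on the log2(CPM + 1) scale relative to the E16 mean and the other run genes at a median of 0.04, while in P310 replicate 2 they stood at 3.604 and 3.774. The authors' counting assigned reads that map to several places to each place, per the file headers, so reads of Gabra2 RNA and reads from other copies of the repeat cannot be told apart in these counts per gene.

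**Figure D3:**
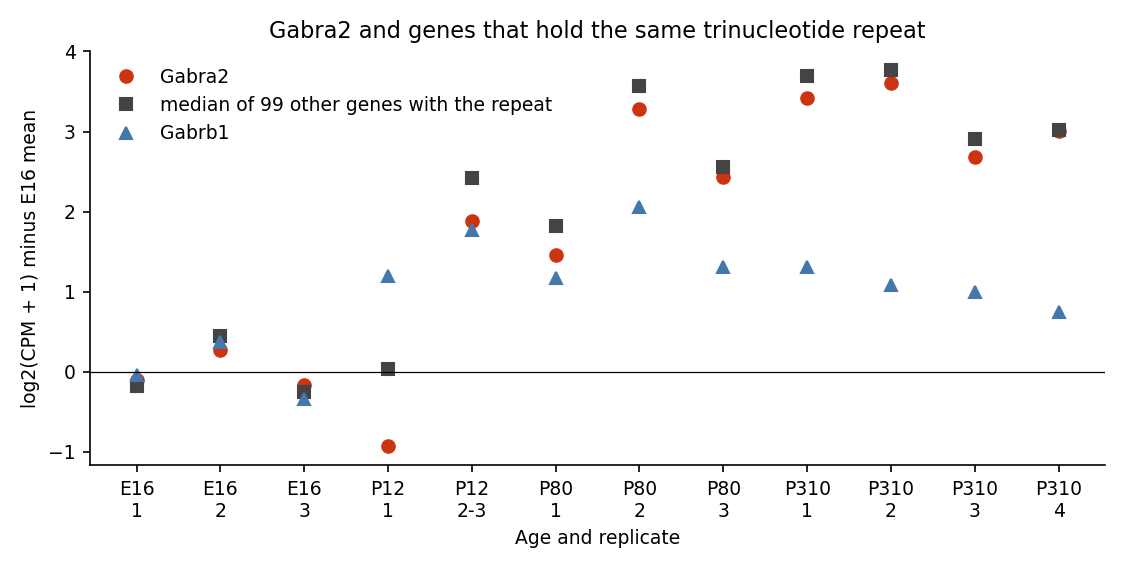
Level of Gabra2, of Gabrb1 and the median of 99 other genes with an AAG or CTT run in each sample, as log2(CPM + 1) minus the E16 mean. Gabra2 stays within 0.54 of the repeat genes in every sample but P12 replicate 1, and Gabrb1 does not follow them at P310.

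Between P12 and P80 none of the 7 subunits was called by edgeR, where 1.42% of genes tested were called. The log2 changes ran from -1.36 (Gabra4) to 1.52 (Gabra2). Between P80 and P310 none of the 7 and none of the 21170 genes tested was called (0.0%), while 1162 genes had an unadjusted p under 0.05 and DESeq2 called 28, none of them among the 7. The log2 changes of the 7 between these ages ran from -1.35 ± 0.88 (Gabrg1) to 1.008 ± 1.37 (Gabra5). With standard errors of 0.34 to 1.37, changes of this size could not be resolved from the spread between samples. Between E16 and P80, 2 of the 7 were called, Gabra2 and Gabrb1, both higher, where 40.7% of all genes were called, 21.5% higher and 19.2% lower. Over all 4 ages together the same count was 2 of 7, again Gabra2 and Gabrb1, against 37.1% of all genes.

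**Figure D4:**
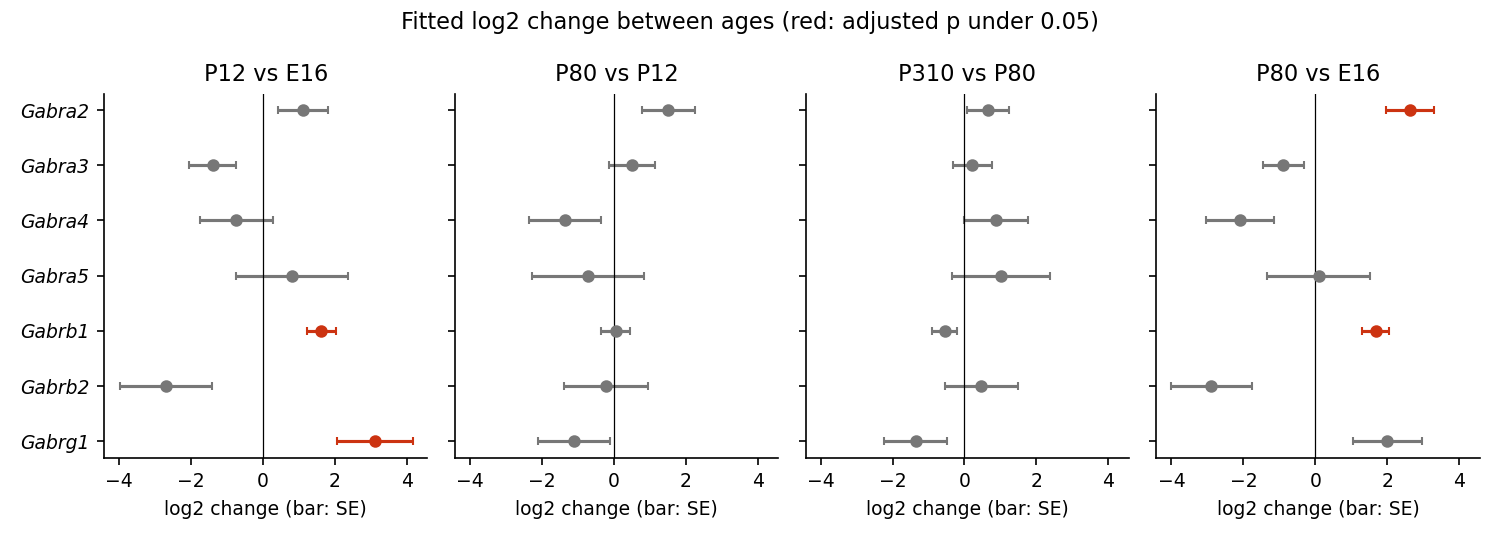
Fitted log2 change (point) with its SE (bar) of the 7 subunit genes in 4 comparisons of ages, with those at an adjusted p under 0.05 in red. Gabrb1 and Gabrg1 are red for P12 against E16, and Gabra2 and Gabrb1 for P80 against E16.

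Levels per kb of exon place the 7 subunits in order within an age. At E16 Gabra2 (2.32 ± 0.41 CPM per kb, SD, n = 3), Gabra3 (1.90 ± 0.42) and Gabrb2 (1.80 ± 0.27) stood highest with overlapping samples. Gabra4 (0.93 ± 0.21) lay below all samples of these and above all samples of Gabrb1 (0.43 ± 0.13), and Gabra5 (0.35 ± 0.18) and Gabrg1 (0.13 ± 0.04) came last. At P12 the order was Gabra2 (4.98 ± 5.43, n = 2), Gabrb1 (1.32 ± 0.38) and Gabrg1 (1.16 ± 0.23), and every neighbour in it overlapped the next. At P80 Gabra2 (14.3 ± 8.6, n = 3) lay above all samples of Gabrb1 (1.38 ± 0.51), which overlapped those of Gabra3 (1.02 ± 0.21). At P310 Gabra2 (22.5 ± 6.23, n = 4) again stood apart from Gabra3 (1.19 ± 0.61) and Gabrb1 (0.94 ± 0.16), which overlapped. The Gabra2 levels contain whatever repeat reads were counted for it.

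Gabrb1 and Gabrg1 went from near the bottom of this order at E16 to the ranks below Gabra2 at P12, while Gabrb2 held 1.80 ± 0.27 CPM per kb at E16 and 0.27 ± 0.34 at P12, the lowest of the 7 there. At P310 Gabrg1 was again the lowest, at 0.21 ± 0.23 CPM per kb. These are levels set side by side, and differences between genes were not tested.

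Of 9 other subunit genes reported here, 5 were tested. Gabra6, the α subunit of cerebellar granule neurons, had 1 count in all at E16 and rose to 0.96 ± 0.65 CPM at P80 (adjusted p = 0.0118 by edgeR). Gabrg3, Gabre and Gabrd, with means of at most 4.63 CPM at any age, did not pass in either comparison with E16 (adjusted p of at least 0.12).

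Genes that supply GABA moved in both directions. Gad1 and Gad2, the enzymes that make GABA, fell from 28.6 ± 1.09 and 33.8 ± 6.25 CPM at E16 to 6.60 ± 6.43 and 5.21 ± 3.76 at P12 (adjusted p = 0.0297 and 0.00684 by edgeR). Slc6a11, the astrocyte GABA transporter, rose from 4.82 ± 0.78 to 135 ± 43.9 CPM (log2 change 4.80 ± 0.64). Of the 10 genes of this list 4 were called at P12, 2 in each direction (median log2 change 0.53), and 6 at P80, 3 in each direction (median -0.18), where 27.2% and 40.7% of all genes tested were called. The GABAergic neuron marker sum fell with Gad1 and Gad2, which belong to it, from 430 to 489 CPM at E16 to 80.1 to 149 at P12.

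Among 17 genes that anchor, traffic or assemble these receptors, 1 was higher and 1 lower at P12 than at E16, and 5 were lower at P80 (median log2 change -0.51 at P12 and -0.55 at P80). Of all genes tested, 27.2% were called at P12 (16.7% higher, 10.5% lower) and 40.7% at P80 (21.5% higher, 19.2% lower). The counts of this and the next 3 lists are to be read against these shares. For these 17 genes the counts in either direction lie below 27.2% and 40.7%. The 5 called lower at P80 lie above the 19.2% of all genes called lower there. Nlgn2, the adhesion molecule of inhibitory synapses, fell from 172 ± 25.6 to 45.4 ± 22.7 CPM by P12 (log2 change -1.92 ± 0.38), and Lhfpl4, which helps to place receptors at synapses, and Gabarap, a receptor trafficking protein, were both lower at P80 (log2 change -2.05 ± 0.61 and -1.19 ± 0.34). Of 8 genes for chloride transport and its control, 2 were higher and 1 lower at P12 (median log2 change 0.74), and 4 higher and 1 lower at P80. Slc12a2, the importer NKCC1, which helps to set whether GABA depolarizes, rose from 62.5 ± 4.56 to 154 ± 83.7 CPM by P12. Slc12a5, the neuronal exporter KCC2, did not pass (adjusted p = 0.387 by edgeR). Wnk3, a kinase of both, fell from 67.4 ± 14.1 to 5.96 ± 0.69 CPM. Of 5 GABA-B receptor genes 2 rose at P12 (median log2 change of the list 1.41), Kctd12 from 70.9 ± 6.02 to 188 ± 6.77 CPM and Gabbr2 from 15.9 ± 2.71 to 62.6 ± 45.9 CPM. Of 4 genes for endogenous modulators 2 rose (median 1.47), Akr1c14, a neurosteroid enzyme, with 0.12 ± 0.20 CPM in E16 samples and 8.66 ± 3.15 in P12 samples, and Tspo, from 0.89 ± 0.50 to 4.59 ± 1.13. Glra2, the embryonic α subunit of the related glycine receptor, fell from 11.9 ± 3.07 CPM at E16 to 0.11 ± 0.15 at P12 (adjusted p = 0.00422 by edgeR).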

How the data were processed

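RNA was measured in 13 bulk libraries of cells sorted on Pdgfra from mouse brain at 4 ages. The authors deposited raw gene counts made with featureCounts 1.5.0-p1 on Ensembl release 92 exons, per the file headers, which took multi-mapping and multi-overlapping reads at every gene they touched by 10 bases, without strand. Trim Galore and TopHat2 2.1.1 are named per the submitters' processing notes. Genes were named from GENCODE M21 (37715 of 37785 matched). Totals ranged from 8669521 to 25810455 counts. A sample with no count allows up to 3 counts, a limit for counting error alone, as PCR copies are not independent.

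P12 replicates 2 and 3 were summed. Genes were kept with filterByExpr by age, scaled by TMM and fitted with 1 mean per age in edgeR 4.0.16 under R 4.3.3, with its robust quasi-likelihood F test, with Benjamini-Hochberg adjustment over 21170 genes and a threshold of 0.05. The standard error is the log2 change divided by the square root of F. Stretches of 30 bases shared with other transcripts were searched in the GENCODE M21 transcripts on both strands. The procedure was also run on simulated counts with a smaller spread than these data, whose common coefficient of variation between samples was 0.51. That run does not measure how the procedure performs at the spread seen here. The alternatives were RLE size factors, DESeq2 1.42.0, 2 other count filters (none, and 1 CPM in 3 samples) and only the 2 ages compared. Further ones were P12 replicates 2 and 3 apart, a replicate block with them also apart, and leaving out each sample. Counts without mitochondrial genes were added after seeing the data, as were the searches for shared stretches and for the repeat. All 7 members, other subunits reported with a mean of at least 1 CPM at any age, up to 3 genes per list with the smallest p over all ages, and the 3 coding genes most like each member are named. Genes of the lists outside that rule (Slc12a2 and Slc12a5) were named after their values were seen. The members and lists were chosen with earlier results of these data known. The values of some genes are left out of this account.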

Additional observations from a re-analysis of the deposited data

Results flagged for a closer look

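Gabra4 at P310 had 1 sample far from the other 3. Replicate 3 held 4.64 CPM (52 counts), while the others held 1.54 to 1.79 CPM, and the gap to the nearest of them was 0.921 of the whole range, above Dixon's critical value for 4 samples. The 7 genes were each examined at P310, the only age with 4 samples, and chance flags about 1 in 20 such groups. Summed mature neuron markers in that sample were 488 CPM, inside the range of 153 to 1218 CPM of the P310 samples.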

How the results depend on the processing

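Of 560 member changes recomputed under alternatives, 522 kept direction and side of the threshold, 6 lost and 16 gained a call, and 16 changed sign, none of these past the threshold. With no low-count filter the number of the 7 called was 4 (P12 against E16), 1 (P80 against P12), 5 (P80 against E16) and 4 (all ages), and with DESeq2 it was 4 for P80 against E16 and for all ages; all genes called were 877 and 637 for P80 against P12 and 423 and 28 for P310 against P80 under these settings, and 521 for P80 against P12 with P12 replicates 2 and 3 apart. Leaving out 1 sample at a time gave 0 to 2 of 7 for P12 against E16 (0 without P12 replicate 2-3), 0 to 1 for P80 against P12, 2 to 4 for P80 against E16 and 1 to 3 for all ages, and 3748 to 6553, 71 to 446 and 0 to 1 of all genes for P12 against E16, P80 against P12 and P310 against P80.

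The labels do not pair samples by replicate number, and no pairing was seen in the deviations of libraries from their age. Same-numbered libraries of different ages had correlated deviations in 4 of 18 pairs (r over 0.1), with a median of 0.02. Differently numbered libraries had them in 9 of 45 pairs, with a median of -0.002. Whether same-numbered libraries shared any processing was not tested. The replicate block left the number of the 7 called at 2, 0, 0, 2 and 2 (successive ages, P80 against E16, all ages) and called 1 gene of all for P310 against P80; it reversed Gabrb1 for P80 against P12 (log2 -0.068) and Gabra5 for P80 against E16 (log2 -0.42).

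The other sign changes came from leaving out a sample or keeping P12 replicates 2 and 3 apart (Gabrb1, -0.028 for P80 against P12), and the cause was not tested. Leaving out each sample in turn, the log2 change for P12 against E16 ran from -1.03 to 1.93 for Gabra2 and from -0.066 to 1.33 for Gabra5, both negative without P12 replicate 2-3. For P80 against P12 it ran from -0.077 to 1.54 for Gabra3 (negative without P12 replicate 1), -1.96 to 0.16 for Gabra5 (positive without P12 replicate 2-3), -0.28 to 0.38 for Gabrb1 (negative without P12 replicate 1 or P80 replicate 2) and -1.36 to 2.97 for Gabrb2 (positive without P12 replicate 2-3 or P80 replicate 3). For P310 against P80 it ran from -0.14 to 0.40 for Gabra3, -0.15 to 1.63 for Gabrb2 and -2.42 to 0.30 for Gabrg1, which changed sign without P310 replicate 2, P80 replicate 3 and P80 replicate 2 respectively. For P80 against E16 it ran from -1.15 to 0.75 for Gabra5, negative without E16 replicate 1 or P80 replicate 1. With 2 to 4 samples an age and 0 to 52 counts per adult sample of Gabra4, depth and spread both limit what could be resolved.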
